A study of Mus musculus with 10 samples.

Results

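The 837 regions described here were short stretches of open chromatin with a peak in each of 4 ATAC libraries of mouse dendritic cells. The rule that picked them used the peak lists alone, but it was chosen with earlier results of these data known. Peak intervals of the 4 libraries that shared at least 1 bp were merged, and a merged region was kept when all 4 libraries had a peak in it and its merged width was at most 450 bp. This left 837 of 24542 merged regions. A further 11196 regions also had a peak in all 4 libraries but were wider, and 8788 regions were as narrow but had a peak in 1 to 3 libraries. Width and presence in every list therefore chose the regions, and peak strength comes from the same peaks, so these are given as descriptions with no test.

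The cells were dendritic cells grown from bone marrow of wild-type C57BL/6 mice, female and 8 to 10 weeks old, in a 7-day culture with 20 ng/mL GM-CSF, the growth factor that drives progenitors toward this cell type. Non-adherent cells were taken on day 6 as immature dendritic cells and kept for 24 h with AMLE, an apple mango leaf extract, at 400 µg/mL, or with the vehicle DMSO at 0.04%. ATAC-seq, made from 100000 cells with transposase for 30 min at 37 °C, covered 2 DMSO and 2 AMLE libraries, and RNA-seq covered 3 and 3. Whether the replicates are separate mice or cultures is not stated, and a p-value therefore reflects the spread among these libraries alone, possibly a technical one. Such cultures hold more than 1 cell type.

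Transposase inserts where DNA is free of tightly packed nucleosomes, so ATAC-seq marks open chromatin, which includes many promoters and enhancers. Promoters lie at gene starts, where the transcription machinery assembles, and many housekeeping promoters are rich in G, C and the dinucleotide CpG. Enhancers lie farther away, inside or between genes, and are bound by factors typical of the cell type. A narrow peak covers about a single gap between nucleosomes, while a wide peak can span several.

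At gene starts, the promoter sequence inside the narrow regions was rich in G and C. RefSeq promoter windows (build GRCm38.p6, the same build as the mm10 coordinates of the peaks) run from 250 bases before a start to 50 after it. Narrow regions covered at least 150 bp of 233 such windows, belonging to 217 genes. The median GC content was 61.7% in these windows, 63.0% in 7052 windows covered in the same way by wider shared regions, and 56.3% over all 21237 windows. The median number of CpG dinucleotides was 21, 24 and 13, in that order. The narrow regions were thus near the wider ones in base composition and above the average promoter.

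The following 4 stretches show examples of motif letters that were commoner in these windows than in all windows, picked from the 15 motifs searched. Each was taken from the best ranked narrow region that holds the motif, and each runs 5′ to 3′ on the gene's strand from its first base inside the region up to the base before the start, or to the region's edge. Capitals mark the motif. Upstream of Rcor1, which encodes a corepressor, it is CCCGCCCC, the reverse complement of the SP/KLF box GGGGCGGG. Upstream of Dnajc16, of the DnaJ co-chaperone family, it is the E-box CACGTG. For Myl6b, a myosin light chain, it is the ETS motif CCGGAAGT. For Vapb, a membrane protein of the endoplasmic reticulum, it is the NRF1 motif GCGCATGCG, which overlaps its own reverse complement.
Rcor1 (chr12:111039117-111039334, plus strand): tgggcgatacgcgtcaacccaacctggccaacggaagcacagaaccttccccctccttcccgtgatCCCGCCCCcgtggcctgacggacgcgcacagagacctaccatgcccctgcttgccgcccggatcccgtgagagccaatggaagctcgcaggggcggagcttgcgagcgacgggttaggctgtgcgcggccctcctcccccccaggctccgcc
Dnajc16 (chr4:141790645-141790894, minus strand): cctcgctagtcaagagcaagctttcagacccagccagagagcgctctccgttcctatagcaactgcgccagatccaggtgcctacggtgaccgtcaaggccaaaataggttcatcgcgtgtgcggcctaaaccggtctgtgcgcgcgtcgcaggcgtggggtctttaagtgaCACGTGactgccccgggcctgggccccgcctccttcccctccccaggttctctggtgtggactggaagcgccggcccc
Myl6b (chr10:128498686-128498935, minus strand): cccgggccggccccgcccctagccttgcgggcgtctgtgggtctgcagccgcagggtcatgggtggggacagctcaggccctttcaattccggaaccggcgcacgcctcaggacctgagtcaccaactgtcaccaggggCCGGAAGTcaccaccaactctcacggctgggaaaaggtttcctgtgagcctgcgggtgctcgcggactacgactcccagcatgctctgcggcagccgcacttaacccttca
Vapb (chr2:173737356-173737570, plus strand): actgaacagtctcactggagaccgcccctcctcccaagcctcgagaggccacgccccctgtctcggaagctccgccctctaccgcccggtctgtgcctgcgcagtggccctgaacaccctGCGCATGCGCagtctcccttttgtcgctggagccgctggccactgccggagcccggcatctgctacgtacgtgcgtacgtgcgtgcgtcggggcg

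Counted on both strands, the SP/KLF box GGGGCGGG stood in 41.2% of the windows covered by narrow regions, 36.2% of those covered by wider regions and 22.1% of all windows. The E-box CACGTG stood in 15.5%, 11.2% and 7.8%. The ETS motif CCGGAAGT stood in 12.4%, 10.7% and 5.2%. These 3 motifs were in a larger share of narrow-region windows than of all windows, and wider regions were also above all windows. For YY1 (ATGGCGGC) the shares were 7.3%, 6.5% and 3.0%, and for NRF1 (GCGCATGCG) 6.0%, 5.0% and 2.3%. The NFY motif CCAATCA stood in 11.6%, 13.1% and 9.1%. The CTCF letters CNAGNGGGC stood in 11.2%, 12.7% and 8.6%, and the NF-kB letters GGGNNTTCC in 8.2%, 8.3% and 6.3%. Of these both classes of region again held more than all windows. The PU.1 letters GAGGAAGT, whose end GGAAGT is shared with the ETS motif, stood in 1.3%, 3.3% and 3.1%. The IRF letters AAANNGAAA stood in 4.7%, 5.6% and 9.7%, and the AP-1 letters TGANTCA in 5.6%, 3.8% and 7.0%. For these 3 the narrow-region windows were below all windows. The RUNX letters TGTGGTT stood in 4.3%, 3.0% and 4.7%, the CEBP letters TTGNGCAA in 2.6%, 2.2% and 2.8%, and the CRE letters TGACGTCA in 2.6%, 4.1% and 2.2%. The ZNF143 letters CTACAATTC were rare, at 1.3%, 0.8% and 0.5%. A match is a run of letters and not a bound site, and windows away from gene starts were not searched because no genome sequence was used.

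Compared with wider shared regions the narrow ones were simple in shape. Their width ran from 257 to 450 bp with a median of 403 bp. In 826 of 837 (98.7%) each library had a single summit, against 69.4% of the wider regions. Narrow regions with a peak in 1 to 3 libraries had 1 summit per library in 99.6%. A single summit is thus not particular to the regions described here. All narrow regions had bases shared by the 4 intervals, at least 55 bp and in the median 262 bp. The 4 summits lay within a median span of 42 bp, against 54 bp in wider regions. At the width limit, 8 regions had exactly 450 bp and 12 excluded ones had 451 bp. Those named at 450 bp lay near H3f3a, Gorab and Ninj2 with fold enrichments in DMSO replicate 1 of 8.87, 12.85 and 12.25, and those at 451 bp near Asns, Swi5 and Foxi1 with 8.35, 14.08 and 5.59.

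In strength the narrow regions lay between wider shared regions and narrow regions of fewer libraries. Strength is the fold enrichment of the strongest summit over its local background, a value of the authors' peak caller that is scaled within a list, so levels are not compared between treatments. The median fold of the narrow regions was 7.72 and 9.21 in DMSO replicates 1 and 2 and 6.81 and 6.75 in AMLE replicates 1 and 2. Wider shared regions had medians of 9.52, 10.94, 8.68 and 8.86. Narrow regions with a peak in fewer libraries had 4.62, 4.85, 3.89 and 4.04 over the libraries in which they were called. The same order held in all 4 libraries. Placed among all peaks of its own list by −log10 q, the median narrow region stood at the 53.4th and 56.9th percentile in the DMSO lists and the 46.4th and 43.5th in the AMLE lists.

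**Figure D1:**
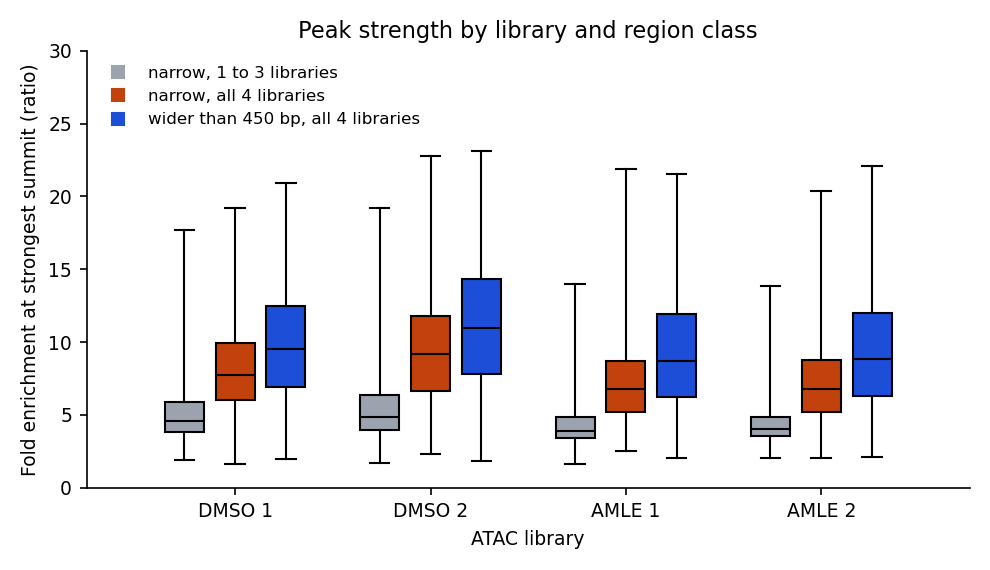
Fold enrichment of the strongest summit (y axis, ratio) in each ATAC library (x axis) for 3 classes of region; boxes span the quartiles with a line at the median and whiskers run from lowest to highest. In each library the median of narrow regions open in all 4 libraries (6.75 to 9.21) lies above that of narrow regions with a peak in 1 to 3 libraries and below that of wider shared regions.

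The narrow regions differed widely among themselves, from a fold of 1.64 to 19.18 in DMSO replicate 1 and from 2.06 to 20.35 in AMLE replicate 2. Their order was much alike between libraries, with Spearman coefficients of 0.721 to 0.794 over the 837 regions for the pairs of libraries. Over the wider shared regions the coefficients were higher, 0.847 to 0.888. These regions share their cells' genome and had to be called in every library, so the coefficients are descriptions. DMSO replicate 2 gave the highest of the 4 folds in 560 of 837 regions, and in 6823 of the 11196 wider shared regions. It also had the longest list, with 19225 intervals, against 18460 in DMSO replicate 1 and 15805 and 15597 in the AMLE lists. Read depth is not part of the peak lists and is not given here.

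The best ranked narrow region lay at chr19:24961514-24961944, at an end of Cbwd1, a gene whose start is not in the promoter table. Its fold was 18.27 and 21.5 in the DMSO libraries and 21.9 and 20.35 in the AMLE libraries. The next 5 were all promoters. They lay 44 bp upstream of the start of Scaf1, a splicing-related factor, 180 bp upstream of Rcor1, 135 bp upstream of Pcbp2, which encodes an RNA-binding protein, 188 bp upstream of Pfkfb4, a regulator of glycolysis, and 169 bp upstream of Zbtb22, a zinc finger gene. At Rcor1 the fold was 16.71, 20.22, 15.05 and 14.1. The 6 weakest also held 3 promoters, those of Camk2n2, an inhibitor of CaM kinase, Tnip1, an inhibitor of NF-kB signalling, and Cxcr3, a chemokine receptor. The others lay inside a gene near Exosc8, between genes with Lipo4 as nearest start, and 51698 bp upstream of Il12b, which encodes the p40 subunit of IL-12 and IL-23. At the region upstream of Il12b the fold was 3.54 and 5.29 in DMSO and 3.41 and 4.55 in AMLE. Gene starts were therefore at both ends of the ranking.

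About equal numbers of narrow regions lay at gene starts, inside genes and between genes. The midpoint of 272 (32.5%, 95% exact interval 29.3 to 35.8%, counting error only) was within 1 kb of the start of a protein-coding gene. A further 254 (30.3%) lay inside a gene and 238 (28.4%) between genes. The last 73 (8.7%) lay at an end of a gene without a known start and could not be placed. Wider shared regions were at a start in 54.2%, inside genes in 17.6% and between genes in 18.2%. Narrow regions with a peak in 1 to 3 libraries were at a start in 11.0%. The median distance to the nearest known start was 9184.5 bp for the narrow shared regions, 330 bp for wider shared regions and 26909.5 bp for narrow regions of fewer libraries. When either end of a gene without a known start was counted as a start, the share at starts was 41.2%.

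Within the regions at starts, the narrow ones were centred closely on the start. Of the 272, 156 had their midpoint downstream of the start and 116 upstream, with a median position of 27 bp downstream. Their midpoint was within 100 bp of the start in 56.6%, against 46.3% of the wider regions at starts. Regions at the starts of a pair of genes read in opposite directions were 7 (2.6%) of the narrow and 629 (10.4%) of the wider regions at starts. Width limits how far from its midpoint a region can reach. A distance could be taken for the 812 narrow regions on chromosomes with a known start. Those not at a start were spread out, 145 at 1 to 10 kb from a known start, 225 at 10 to 50 kb and 170 beyond 50 kb. These counts take in unplaced regions at ends of genes without a known start.

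**Figure D2:**
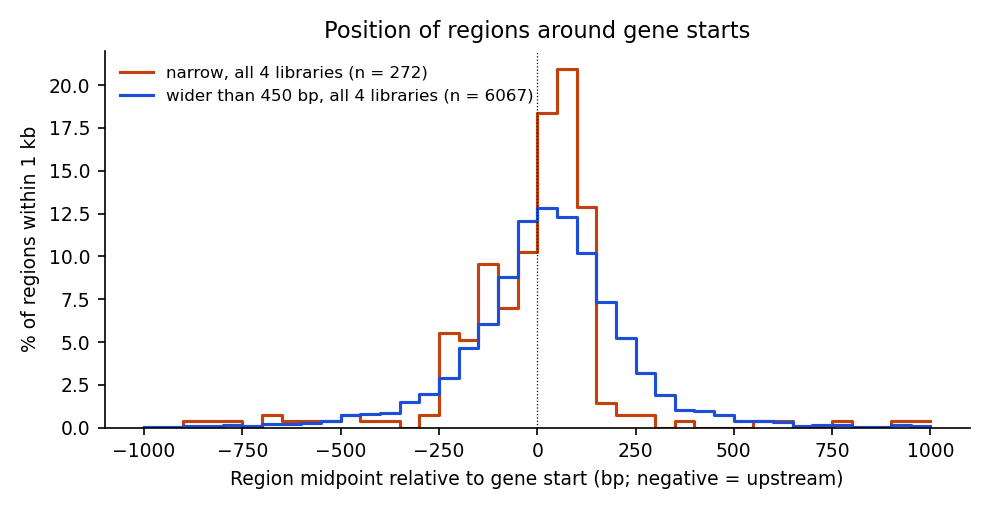
Share of regions within 1 kb of a gene start (y axis, %) by position of the region's midpoint relative to the start (x axis, bp, negative upstream), in bins of equal width, for narrow and wider regions with a peak in all 4 libraries. The narrow regions (n = 272) peak just downstream of the start and thin out beyond 250 bp on either side.

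Strength was highest close to the start. The 250 narrow regions within 250 bp of a start had median folds of 8.58 and 10.59 in the DMSO libraries and 7.92 and 7.55 in the AMLE libraries. The 22 at 250 to 1000 bp had 5.78, 6.99, 5.80 and 5.71. Beyond 50 kb the medians were 7.93, 9.33, 6.61 and 6.61. Of the distance bands, that at 250 to 1000 bp was the weakest in each of the 4 libraries, though it holds few regions. The bands beyond 1 kb take in unplaced regions at ends of genes without a known start, so they are not remote regions alone. The 73 unplaced regions had medians of 7.97, 10.73, 7.37 and 7.17. Inside and between genes, narrow regions were close in strength to wider ones: between genes the medians were 7.35, 8.82, 6.21 and 6.15 for narrow and 7.93, 8.62, 6.81 and 6.98 for wider regions. At starts the gap was larger, with 8.39, 10.4, 7.70 and 7.39 for narrow and 10.78, 12.57, 10.22 and 10.34 for wider regions.

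The share at gene starts rose with width over the shared regions. It was 26.4% of the 159 regions of at most 350 bp, 30.5% of the 243 of 351 to 400 bp and 35.9% of the 435 of 401 to 450 bp. Outside the limit it was 42.6% at 451 to 500 bp, 47.9% at 501 to 600 bp and 55.5% at 601 to 800 bp, and it stayed near that level in wider bands. The limit of 450 bp thus cuts a slope and parts no separate class.

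**Figure D3:**
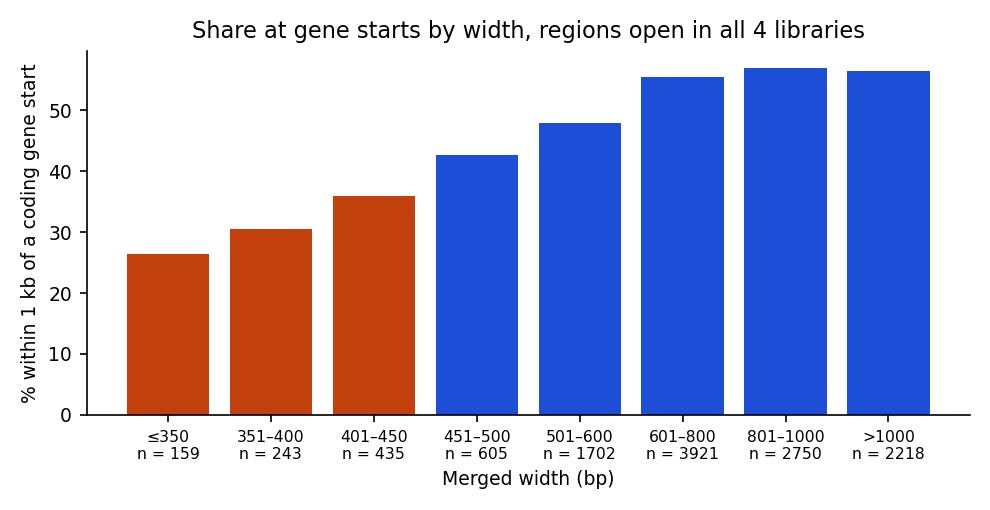
Share of regions open in all 4 libraries whose midpoint lies within 1 kb of a protein-coding gene start (y axis, %), by merged width (x axis, bp, with the number of regions in each band). The bars rise from 26.4% at 350 bp or less to 55.5% at 601 to 800 bp, and the 3 leftmost bars are the narrow regions.

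Along the chromosomes, 24 of 837 narrow regions (2.87%, 95% exact interval 1.85 to 4.24%) lay within 10 kb of another, always as pairs. The median distance to the next was 462541 bp. With a width limit of 600 bp the share was 9.16% of 3144 regions, so it moves with how many regions are kept. Random placement was not modelled, so neither scatter nor clustering is read from these values. With 1 ATAC library left out, when a peak in the other 3 was enough, the share was 4.31% without DMSO replicate 1, and 4.72% and 4.48% without AMLE replicates 1 and 2. The 12 pairs included 2 at Mreg, a gene of melanosome and lysosome biology, 1 region at its start and 1 between genes nearby; 2 at starts of Srebf1, a master regulator of lipid synthesis genes; 2 inside genes with the nearest start that of Cyth4, a guanine nucleotide exchange factor of blood cells; and 1 each at the starts of the neighbours Mrpl34 and Dda1. The nearest wider region open in all 4 libraries lay at a median of 20697.5 bp; regions with a peak in fewer libraries were not counted here. Of the narrow regions, 109 (13.02%) lay within 5 kb of a wider shared region, while 5.67% of the wider regions had another wider region that close. Narrow regions at starts were more remote from any other region open in all 4 libraries (median 28476 bp) than those inside genes (17460 bp) or between genes (16641 bp).

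Narrow regions followed the wider ones in number. Over 271 windows of 10 Mb the median was 2 narrow regions and 42 windows had none, and the Spearman coefficient with the count of wider regions was 0.722, a description in which both counts share gene density and the same peak lists. The density ran from 0.135 per Mb on chromosome X to 0.555 on chromosome 19. As a share of all shared regions it ran from 4.84% on chromosome 14 to 9.24% on chromosome 15. The fullest window was chromosome 8 from 120 to 130 Mb, with 13 narrow and 90 wider regions. Only 1 of those 13 was at a start, that of Pgbd5, and 2 flanked Irf2bp2, which encodes a partner of the interferon regulatory factor IRF2. The next was chromosome 17, with 12 narrow regions at 20 to 30 Mb and 12 at 30 to 40 Mb. The first of these held regions near Dusp1, a phosphatase of MAP kinases, Cdkn1a, the cell cycle inhibitor p21, and Pim1, a kinase gene with a region on either side of its start. The second covers the major histocompatibility complex, and its regions included the start of H2-Eb1, an MHC class II gene, and one 18992 bp downstream of the start of H2-K1, an MHC class I gene.

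RNA was used as a readout that does not enter the rule for the regions, although the regions were chosen with earlier results of these data known. Levels are CPM, reads of a gene relative to its library's normalised size, and a gene was called when the adjusted p of edgeR's quasi-likelihood test over 13075 genes was below 0.05. After AMLE, 48.6% of all tested genes were called in either direction, 23.0% higher and 25.6% lower. A narrow region lay at the start of 279 genes, of which 262 passed the low-count filter and were tested. Of these 64 (24.4%) were higher and 67 (25.6%) lower, which is near the share over all genes. A 2-fold or larger change was called for 9 higher and 11 lower genes, where all genes gave 5.52% and 4.4%. The groups did not overlap in 159 of the 262, beside 59.7% of all genes. The median log2 change was −0.03, and −0.01 over all genes. Genes with a narrow region at the start were therefore called about as often as any tested gene. Of their 131 calls, 88 were made again in every fit that left out 1 of the 6 libraries. For the nearest genes of narrow regions away from starts it was 145 of 199 calls. The matching count over all tested genes is not given, so no trait of these genes is read from it.

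The genes nearest to narrow regions away from starts numbered 445, and 376 were tested. Of these 112 (29.8%) were higher and 87 (23.1%) lower, beside the 23.0% and 25.6% over all genes. The genes nearest to wider regions away from starts gave nearly the same split, 28.9% and 22.8% of 2073. Genes with a wider region at the start gave 20.7% and 30.3% of 6505. A 2-fold or larger change was called for 26 higher and 13 lower of the 376 genes, together 10.37%. Over all genes it was called for 5.52% higher and 4.4% lower, together 9.92%. Of the 445 genes, 234 (52.6%) also had a wider region at a start, and the nearest gene need not be the one that a region acts on. Differences between these sets were not tested.

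**Figure D4:**
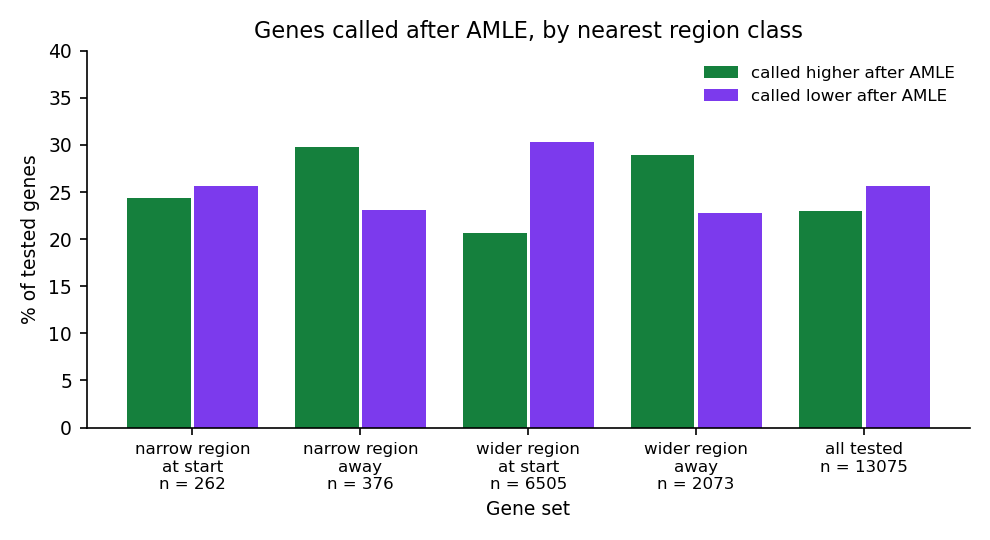
Share of tested genes called higher or lower after AMLE (y axis, %; edgeR, adjusted p below 0.05) for genes sorted by the nearest class of region (x axis, with the number tested). Genes with a narrow region at the start (24.4% higher, 25.6% lower) lie near all tested genes (23.0% and 25.6%).

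The median RNA level of the tested genes with a narrow region at the start was 25.4, 25.6 and 26.2 CPM in the DMSO libraries and 22.2, 21.6 and 22.0 CPM in the AMLE libraries. Over all tested genes it was 26.9 to 27.3 CPM in DMSO and 25.3 to 25.6 CPM in AMLE. For the nearest genes of regions away from starts it was 50.1 to 52.1 and 54.7 to 55.7 CPM. CPM is not scaled to gene length, so no order of levels between these sets is read.

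The listed markers of dendritic cells were present, and the 14 genes summed to 6164 to 8749 CPM in DMSO and 7502 to 8146 CPM in AMLE. Cd74, the MHC class II invariant chain, was the most abundant of them, at a mean of 3568 CPM. Of the 6 lists for other cells, the sums of neutrophil and macrophage markers did not overlap between the groups and the others did. The 11 measured neutrophil and granulocyte precursor markers summed to 13700 to 21790 CPM in DMSO and 9104 to 12640 CPM in AMLE. These sums were above those of the dendritic cell list in both groups, and S100a9 was the most abundant gene, at a mean of 6723 CPM. Sums over different genes without length correction do not give the share of each cell type. The 12 macrophage markers summed to 1949 to 2288 and 1091 to 1854 CPM. Mast cell and basophil markers (10 genes) summed to 260 to 423 and 404 to 773 CPM. The 12 lymphocyte markers stood at 30.6 to 42.9 and 34.5 to 55.4 CPM. The 8 stromal markers stood at 2.29 to 3.17 and 2.37 to 3.79 CPM. The 8 erythroid markers stood at 1.08 to 1.38 and 1.34 to 2.16 CPM, with the 4 globin genes at 0 in every library. The part of these cells in the RNA and peak results was not tested. In such bulk libraries, fewer cells of a type and less RNA per cell cannot be told apart.

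Of 32 listed dendritic and myeloid transcription factors, Batf3 and Runx3 had a narrow region at the start, and both rose. Over the whole list 14 rose and 9 fell, and 17 of its genes had a wider region at the start. Batf3, a transcription factor needed for the cross-presenting type of conventional dendritic cell, had a region 199 bp downstream of its start (chr1:191098406-191098819). Its RNA was 32.7, 38.5 and 30.1 CPM in DMSO and 85.8, 104 and 54.8 CPM in AMLE. All AMLE libraries were above all DMSO libraries, a 2.42-fold rise (log2 change 1.27 ± 0.23, SE; edgeR adjusted p = 0.00388). Il12rb2, the signalling subunit of the IL-12 receptor, stood at 45.0, 43.5 and 55.2 CPM in DMSO and 76.8, 94.5 and 71.0 CPM in AMLE. It rose 1.69-fold (0.76 ± 0.13; edgeR adjusted p = 0.00363), and its region, 42 bp downstream of the start, had folds of 9.58, 10.05, 9.24 and 6.43. Runx3, a transcription factor of dendritic cells and T cells, rose by 0.47 ± 0.07 on the log2 scale (edgeR adjusted p = 0.00114), with a region 149 bp upstream and another 8408 bp downstream of a start.

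Bmf, which encodes a pro-apoptotic protein of the BCL2 family, was at 77.2, 77.5 and 74.2 CPM in DMSO and 159, 196 and 138 CPM in AMLE. This 2.15-fold rise (log2 change 1.10 ± 0.12, SE; edgeR adjusted p = 0.000568) left the groups well apart. Slc30a4, a zinc transporter, was at 27.9, 33.7 and 40.3 CPM in DMSO and 76.8, 97.8 and 47.3 CPM in AMLE. It rose 2.18-fold (edgeR adjusted p = 0.012), a call lost with the replicate number as a block (edgeR adjusted p = 0.0764). Mreg was at 52.9, 55.7 and 61.7 CPM in DMSO and 101, 112 and 113 CPM in AMLE, a 1.92-fold rise (edgeR adjusted p = 0.000128). Pnkd (1.63-fold), Igsf9, a cell adhesion gene (log2 change 0.59), and Ccdc6, a coiled-coil protein gene (0.58), completed the 8 largest rises among genes at 10 CPM or more. The call of Igsf9 (edgeR adjusted p = 0.0255) was lost when DMSO replicate 1 was left out (0.0702), and likewise for AMLE replicates 1 (0.0730) and 2 (0.0740).

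A gene below that level, named after its values were seen, had the largest rise of all genes with a narrow region at the start. Cyp1b1, a cytochrome P450 gene known as a target of the aryl hydrocarbon receptor, was at 0.35, 0.32 and 0.31 CPM in DMSO and 14.7, 15.4 and 10.2 CPM in AMLE. The fitted fold was 40.7 (log2 change 5.35 ± 0.24, SE; edgeR adjusted p = 2.91e-05). Its narrow region, chr17:79715669-79716062, centred 805 bp upstream of the start, was called in both groups with folds of 6.15 and 4.28 in DMSO and 5.77 and 5.93 in AMLE. A peak in the vehicle libraries is what the choice of regions asked for, so its presence beside the low RNA is not read as a result.

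Of 40 listed cell cycle genes, 3 had a narrow region at the start, Mki67, Rrm1 and Ccnd3, the gene of cyclin D3. All 3 fell, beside 38 of 40 in the whole list, a list chosen with these results known. Mki67 and Rrm1 were also among the 8 largest falls at 10 CPM or more, which Cenpf led. Cenpf, a kinetochore protein, was at 52.2, 44.4 and 61.2 CPM in DMSO and 8.85, 8.08 and 14.2 CPM in AMLE. It fell to 0.196 times the DMSO level (log2 change −2.35 ± 0.23, SE; edgeR adjusted p = 0.000319). Mki67, which encodes the proliferation marker Ki-67, was at 556, 495 and 555 CPM in DMSO and 117, 112 and 162 CPM in AMLE. No AMLE library came near the DMSO range for either gene. Mki67 fell to 0.243 times the DMSO level (−2.04 ± 0.15; edgeR adjusted p = 0.000123), and it had a second narrow region 57576 bp upstream. Rrm1, the large subunit of ribonucleotide reductase, which makes the building blocks of DNA, was at 174, 158 and 191 CPM in DMSO and 53.1, 53.3 and 66.4 CPM in AMLE (edgeR adjusted p = 0.000101). Ckap2 and Gpsm2, of the mitotic spindle, fell by 1.84 and 1.60 on the log2 scale, and the kinase gene Melk by 1.29. The others were Dhrs9, a retinol and steroid dehydrogenase gene (−1.39), and Rnf26, a ubiquitin ligase gene (−1.11).

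The promoters of Cenpf and Mki67 are shown, genes which fell while a narrow peak was called at them in all 4 libraries. Each stretch runs from the first base of the promoter window inside the region to the base before the start or the region's edge. Bases of a region farther upstream than the window are not shown. Capitals mark matches to the 15 motifs searched. In Cenpf these are the NFY motif CCAATCA and the ETS motif CCGGAAGT, and Mki67 has no match in this window. The promoter of Slc30a4, which rose, follows for comparison. Its capitals are a match to the reverse complement of the CTCF letters CNAGNGGGC, and the SP/KLF box GGGGCGGG.
Cenpf (chr1:189688087-189688336, minus strand): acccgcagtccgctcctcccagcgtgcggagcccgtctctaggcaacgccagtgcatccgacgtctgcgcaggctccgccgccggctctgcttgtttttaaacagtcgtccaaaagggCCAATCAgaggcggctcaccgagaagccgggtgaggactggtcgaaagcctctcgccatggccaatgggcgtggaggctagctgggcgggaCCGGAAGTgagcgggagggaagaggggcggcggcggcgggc
Mki67 (chr7:135716427-135716629, minus strand): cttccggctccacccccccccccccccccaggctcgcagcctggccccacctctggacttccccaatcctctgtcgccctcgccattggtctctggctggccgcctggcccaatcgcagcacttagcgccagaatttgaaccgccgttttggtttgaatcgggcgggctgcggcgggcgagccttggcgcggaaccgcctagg
Slc30a4 (chr2:122702664-122702882, minus strand): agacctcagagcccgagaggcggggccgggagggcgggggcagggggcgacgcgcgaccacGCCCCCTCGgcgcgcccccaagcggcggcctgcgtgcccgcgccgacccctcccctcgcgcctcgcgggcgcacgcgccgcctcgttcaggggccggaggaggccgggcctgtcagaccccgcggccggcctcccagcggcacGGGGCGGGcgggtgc

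A peak in both groups is what the choice of regions asked for, and its strength is given here for 4 of the named starts. The fold at Cenpf was 17.66 and 18.67 in DMSO and 16.36 and 13.58 in AMLE, and at Mki67 it was 8.79 and 10.98 in DMSO and 6.32 and 5.35 in AMLE. At Rrm1 it was 14.33, 14.69, 13.66 and 9.61. At Batf3, whose RNA rose, it was 5.05 and 3.95 in DMSO and 4.46 and 3.19 in AMLE. These starts were picked as examples, and no direction is read between the treatments: the fold is scaled within a list, and with 2 libraries against 2 an exact permutation test cannot give a p below 0.333.

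**Figure D5:**
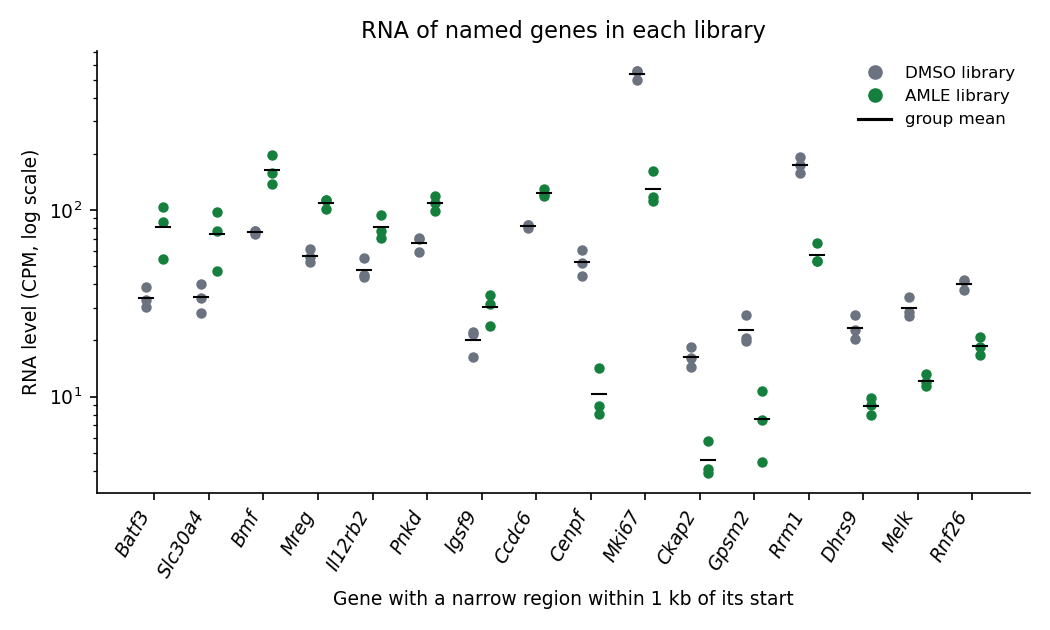
RNA level (y axis, CPM on a log scale) in each of the 3 DMSO and 3 AMLE libraries, with the group mean as a line, for the 16 named genes with a narrow region within 1 kb of the start (x axis). The 8 genes on the left are higher and the 8 on the right lower in every AMLE library than in any DMSO library; Mki67 falls from 535 to 130 CPM in the mean.

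Few other genes of the listed pathways had a narrow region at the start. Such regions were rare at starts in general, at 279 genes beside 17491 coding genes with a known start. Small counts in a list are therefore not read as a trait of that list. The third cell cycle gene, Ccnd3, went from 314, 309 and 259 CPM to 207, 185 and 184 CPM (log2 change −0.61 ± 0.09, SE; edgeR adjusted p = 0.00129). Of 41 chromatin modifier genes 2 did. Kmt2a, a histone H3 methyltransferase gene, rose (0.47 ± 0.08; edgeR adjusted p = 0.00236), and Arid1a, a subunit of the SWI/SNF remodelling complex, was at the limit (−0.15 ± 0.05; edgeR adjusted p = 0.0499). The call of Arid1a was lost in 5 of the 6 fits without 1 library, with edgeR adjusted p of 0.15 and 0.141 without DMSO replicates 1 and 2 and of 0.139, 0.0739 and 0.131 without AMLE replicates 1 to 3. It was also lost without the low-count filter (0.0546), with DESeq2's size factors (0.0773) and with DESeq2 (0.0715). Tnip1, the only one of 26 NF-kB signalling genes, rose by 0.24 ± 0.07 (edgeR adjusted p = 0.0267), a call lost without any 1 of the DMSO replicates (0.0597, 0.0663 and 0.0837) or without AMLE replicate 1 (0.0644). In that list 19 of 26 rose and 1 fell.

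H2-Eb1, the only one of 28 MHC presentation genes, had a region centred 1 bp upstream of its start. Its RNA was 721, 924 and 1278 CPM in DMSO and 589, 615 and 853 CPM in AMLE, so the groups overlapped. Its log2 change was −0.51 ± 0.23 (SE; edgeR adjusted p = 0.109), and with the replicate number as a block it was called (−0.49; edgeR adjusted p = 0.0008). It was also called without DMSO replicate 1 (0.0469), without AMLE replicate 3 (0.0483) and by DESeq2 (0.0396). Mrpl34, of the mitochondrial ribosome (1 of 42 listed), and Ercc2, a DNA repair helicase (1 of 40), had log2 changes of −0.08 and −0.07 and were not called. In their whole lists 37 of 42 and 27 of 40 genes were lower. Of mitochondrial ribosomal genes outside the list, named after their values were seen, Mrpl21 (−0.44; edgeR adjusted p = 0.00132), Mrpl36 (−0.33; 0.00282) and Mrpl48 (−0.28; 0.0189) also had a narrow region at the start and were lower. The call of Mrpl48 was lost without DMSO replicate 1 (0.0678), DMSO replicate 2 (0.0579) and AMLE replicate 2 (0.0680). No gene of the lists for dendritic cell maturation (30 genes), ribosomal proteins (52), oxidative phosphorylation (34), splicing (37), interferon-stimulated genes (38) or autophagy and lysosome (36) had a narrow region at the start. Wider regions stood at the starts of 11, 37, 22, 33, 12 and 26 of them. Listed genes without a known start could not be counted for either class of region. In the maturation list 29 of 30 rose, and 2 of its genes, Ccl22 and Il12b, were nearest to a narrow region away from starts.

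Both maturation genes nearest to a narrow region away from starts rose, and Ccl22 had the largest rise of all called genes of this set at 10 CPM or more. Ccl22, a chemokine that draws regulatory and helper T cells, was at 2216, 2445 and 2156 CPM in DMSO and 10120, 12520 and 7972 CPM in AMLE. It rose 4.49-fold (log2 change 2.17 ± 0.17, SE; edgeR adjusted p = 0.000131). Its narrow region, chr8:94739693-94740111, lay 5782 bp upstream of the start and was weak, with folds of 3.79 and 4.98 in DMSO and 3.31 and 4.90 in AMLE. Il1a, the gene of the cytokine IL-1 alpha, with a region 10240 bp upstream, was at 10.6, 15.7 and 11.9 CPM in DMSO and 59.5, 43.9 and 48.4 CPM in AMLE. Each AMLE value was above each DMSO value (3.98-fold; edgeR adjusted p = 0.000216). Ddit4, an inhibitor of the growth kinase mTORC1, rose by 1.92 on the log2 scale, and Ltc4s, leukotriene C4 synthase, by 1.71. Il12b was at 10.6, 11.8 and 14.5 CPM in DMSO and 24.0, 26.1 and 32.5 CPM in AMLE, a 2.23-fold rise (1.16 ± 0.15; edgeR adjusted p = 0.00103) although its region was among the 6 weakest.

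The largest falls in this set were Kif14, Mrc1, Fignl1 and, through its second region, Mki67. Kif14, a kinesin of cytokinesis, had a region 1483 bp upstream and went from 28.7, 24.8 and 32.8 CPM to 4.93, 4.81 and 7.07 CPM (log2 change −2.37 ± 0.17, SE; edgeR adjusted p = 0.000121). Its narrow region was strong, with folds of 13.8, 17.29, 9.80 and 9.43. Mrc1, the mannose receptor of macrophages and immature dendritic cells, was at 142, 152 and 262 CPM in DMSO and 24.8, 15.5 and 71.1 CPM in AMLE. The spread was wide in both groups (−2.33 ± 0.56; edgeR adjusted p = 0.0133), and the call was lost without AMLE replicate 1 (0.0506) and without the low-count filter (0.0708). Fignl1, an ATPase of DNA repair, fell by 2.05 ± 0.10 (edgeR adjusted p = 3.09e-05).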

How the data were processed

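RNA values were raw counts per gene symbol, as the authors deposited them, from stranded poly(A) libraries, per the labels' protocols; totals ran from 26010455 to 34208286 per library. The ATAC peak lists, deposited separately for each library, hold a fold (a ratio over local background) and a −log10 q per summit; the smallest −log10 q was 1.30 to 1.31. Tools named in the submitters' processing notes, without roles, include Trim Galore 0.6.7, STAR 2.7.11b, Bowtie2 2.4.4, SAMtools 1.7 and MACS3 3.0.0a7, with the build mm10. Peak settings and counting tool: not given in the sources used here. Overlapping or near-identical genes could therefore share reads.

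Peaks were merged as described in the report (Python 3.11.15, pandas 2.3.3). Distances run from the region's midpoint to the nearest start of a protein-coding gene in RefSeq GRCm38.p6. Starts were known for 17491 of 21896 coding genes, none of them on chromosome 18. A region outside 1 kb of a known start but at an end of a gene without one was left unplaced. Motifs (15, both strands) were searched in the RefSeq promoter windows. Of 24385 count symbols, 24239 matched the table.

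Genes were tested with edgeR 4.0.16 (R 4.3.3) in 1 fit over all genes: TMM factors, filterByExpr (minimum count 10), robust quasi-likelihood F test, two-sided, Benjamini-Hochberg adjustment. Log2 changes are AMLE minus DMSO, their SE are approximate, and levels carry no length correction. Alternatives were DESeq2 1.42.0, voom from limma 3.58.1, other scaling, no filter, a replicate block and leaving out each library. Same-numbered DMSO and AMLE libraries deviated together from their group means (r = 0.29, 0.28 and 0.43). By the rule that every pair must exceed 0.1 the numbers were taken as pairs in the block fit. Libraries of unlike number gave r of −0.31 to 0.11, so some of these also passed 0.1 and the rule alone does not establish pairs. The pairing comes from the data, as the labels name no shared batch. The fit without the block is reported, so its p-values do not use the pairing.

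The members and lists were chosen with earlier results of these data known. Genes named were the 6 best and 6 worst ranked regions, the 3 regions on either side of the width limit, the 8 largest rises and falls among called genes at starts with a mean of at least 10 CPM and no overlap of the groups, the 4 each way for nearest genes elsewhere, and the most abundant listed genes at starts. The fullest windows and pairs were also named, as were genes given as chosen after their values were seen. The promoters of Cenpf, Mki67 and Slc30a4 were picked for printing after the values were seen. Sequences of regions away from promoters were not used here.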

Additional observations from a re-analysis of the deposited data

How the results depend on the processing

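The number of narrow regions followed the width limit by construction, with 30 at 300 bp or less and 3144 at 600 bp or less, and ran from 1131 to 1428 when 1 ATAC library was left out, since a peak was then asked of 3 libraries. The share at gene starts was 42.8% at 600 bp or less and 41.2% with ends of genes without a known start counted as starts, an alternative chosen after seeing the data; under the other alternatives it stayed within its main interval. The share within 10 kb of another narrow region was 0.0% at 300 bp or less (0 of 30), 9.16% at 600 bp or less and 3.98 to 4.72% without 1 library, and 1.43% or 6.33% with a limit of 5 or 25 kb. The median fold in DMSO replicate 2 was 10.5 with peaks of −log10 q of at least 5. Genes with a start within 10 kb gave 113 higher and 117 lower calls of 454 tested. With 1 RNA library left out, calls at starts ran from 45 to 71 higher and 52 to 66 lower, and those away from starts from 89 to 128 and 66 to 100. Calls over all tested genes also moved between these fits, from 2263 to 3308 higher and 2666 to 3475 lower. With the replicate block, which pairs equal numbers, higher and lower calls were 69 and 78 at starts and 132 and 99 away from them. Over all 13075 genes they were 3434 and 3813, beside 3004 and 3346 without the block. Besides Slc30a4 and H2-Eb1 the block changed no call among the other genes refitted, which are those named for their RNA change or list. Mrpl34, not called, had log2 changes of −0.14 to 0.01 with 1 library left out, positive without AMLE replicate 2; the cause was not tested. Peak lists carry no read depth, so weak regions missing from 1 list cannot be told from closed ones.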

Other observations

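Narrow regions away from starts rarely gathered at the same gene: 28 genes were nearest to at least 2 of them and none to more than 3. Those with 3 included Cyth4, a gene of blood cell signalling, Iqgap1, a scaffold protein of the actin cytoskeleton, and Mmp27, a matrix metalloproteinase gene. MicroRNA hairpins in the RefSeq table lay within 1 kb of a few narrow regions. The hairpins of Mir219a-1 and Mir219c lay beside the region at the start of Ring1, a Polycomb gene (chr17:34024390-34024793), and that of Mir7668 beside the region at the start of Zfp27, a zinc finger gene (chr7:29906101-29906511). The RNA table was made from poly(A) libraries, and microRNA levels were not analysed here.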
